A study of Rattus norvegicus with 35 samples.

Results

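The 10 genes described here make the enzymes and the helper protein that turn arachidonic acid into prostaglandins, leukotrienes and hydroxy fatty acids: Alox15, Alox5, Alox12, Alox5ap, Ptgs1, Ptgs2, Ptgds, Ptges, Ltc4s and Lta4h. They were measured in the rat olfactory epithelium, the sheet of sensory neurons, supporting cells and basal cells that lines the back of the nasal cavity. The members were found by name among the probes of the array, as 10 of the 35608 gene and transcript names it carries, and 11 probes matched them, 1 for each gene except Ptgs2, which had 2. The genes were selected on their levels in these same litters and age groups, so their levels and the differences between groups are given below as a description, without a test.

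All animals were Brown Norway rats. The newborn group held 19 pups aged 3 to 5 days, bought with their mothers, in litters L1 (4 pups), L2, L3 and L4 (5 pups each), with RNA from 1 side of the nasal epithelium of each pup and no sex given in the labels. The adult group held 4 males aged 9 weeks, and the old group 4 males aged 22 months that had lived in the animal house since the age of 3 weeks, with separate RNA samples A and B from the left and right epithelium of each adult and old rat. No animal was treated. Pups and older rats differed in housing as well as in age, and the adult arrays alone were scanned on days 1 and 2 and read with an earlier software release, so that these factors and age cannot be told apart in comparisons with adult rats. L1 and the old rats shared scan day 3, and days 4 and 5 held the arrays of the other 3 litters. In newborn against old rats, housing and, for L2 to L4, scan day therefore cannot be told apart from age either. Nor can any difference in sex in the newborn comparisons, since all adult and old rats were male and the sex of the pups is not given. Pups of a litter share a mother.

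Arachidonic acid is cut from membrane lipids by phospholipases A2. Cyclooxygenases (Ptgs1 and Ptgs2) convert it to an unstable endoperoxide, from which Ptges makes prostaglandin E and Ptgds prostaglandin D. Lipoxygenases add oxygen directly: 5-lipoxygenase (Alox5), which needs the membrane protein made by Alox5ap, starts the leukotrienes, Lta4h makes leukotriene B4 and Ltc4s leukotriene C4. The lipoxygenase of Alox15 and the platelet-type enzyme of Alox12 make hydroxy fatty acids. Alox15 is known from airway epithelium, eosinophils, macrophages and, above all, from reticulocytes, the last immature stage of the red cell, where it takes part in the removal of mitochondria. Leukotriene enzymes are best known from mast cells, neutrophils and macrophages.

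The probes on which the results turn are shown here by their first 30 bases, 5′ to 3′, of 60, since a level on this array is the level of 1 such sequence. All are given in lower case.
Alox15: aaggctgtgctgaagaagttcagagaggaa
Alox5: gagctgtttctgggcatgtacccagaggag
Alox5ap: catcttcttcttcggaagcgacttcgagaa
Ltc4s: tctgctgcaagcctacttctccctacaggt
Ptgs2, probe spotted once: acagacaacataaacttcgacttttccagg
Ptgs2, probe spotted 10 times: cattcttgtcctgaagaattgctttcttat

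The files place the Alox15 probe on the minus strand at chr10:57199825-57199884 of build rn3, 105 kb from the probe of Alox12 (chr10:57094469-57094528) and 24.1 kb from that of Alox12e, a further lipoxygenase. The Alox5ap probe lay at chr12:6246233-6246292, also on the minus strand. The probes of Alox5 (chr4:152855672-152857250, 1579 bases) and Ltc4s (chr10:35788767-35789815, 1049 bases), both on the minus strand, and the first of Ptgs2 (chr13:64444979-64445163, 185 bases, plus strand) span more of the genome than their 60 bases, as a sequence across an exon junction does. The other Ptgs2 probe lay at chr13:64448537-64448596, plus strand. No genome or annotation of that build was used here, so the exon or untranslated region of each probe is not given. No 2 probes of different genes among these and the other lipoxygenases shared a run of more than 8 bases.

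Levels are given as log2 of the background-subtracted intensity over the median intensity of the array, averaged over samples A and B of a rat, so that 0 is the median probe. Levels of different probes are not compared with each other. The median intensity was 42.1 to 87.7 on newborn, 81.6 to 162 on adult and 37.1 to 55.3 on old arrays, and 24484 to 28361 transcripts per array were above background. The 6 markers fixed for mature olfactory sensory neurons, such as Omp, and the 5 for immature ones were above background in all groups, the first with the higher summed level in adult and old rats and the second in pups. A transcript was called expressed in common when it was above background on at least 3 arrays of each litter, 6 of 8 adult and 6 of 8 old arrays, and 8 of the 10 members (all but Alox12 and Ptgs2) were among the 23668 that met this. The median log2 difference of these 23668 was 0.15 in newborn against adult, -0.03 in newborn against old and -0.18 in adult against old rats. With quantile normalization it was -0.03, -0.05 and -0.02, and differences of this size are given relative to the median too where they are described.

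**Figure D1:**
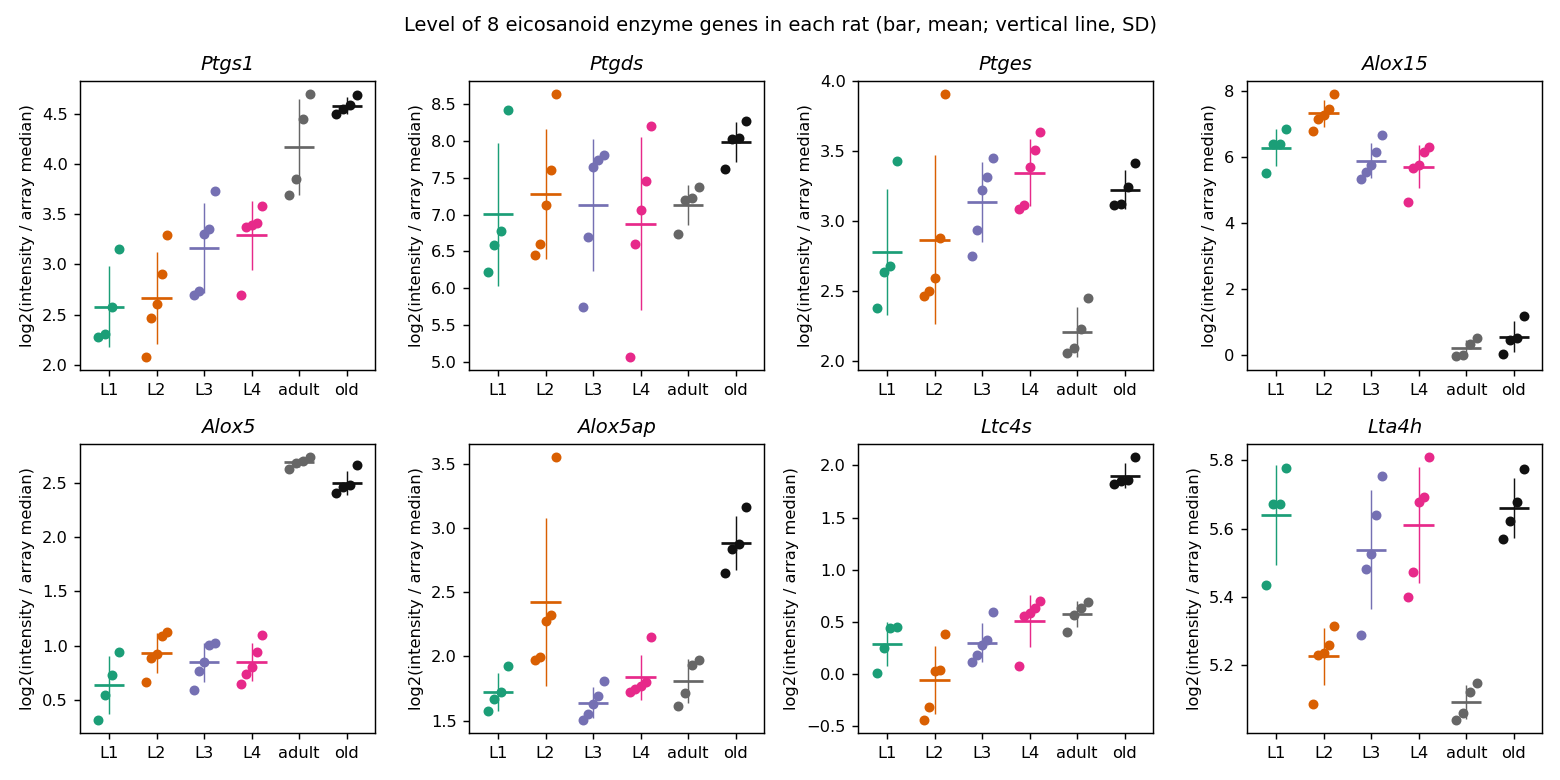
Level of the 8 member genes expressed in common, as log2 of intensity over the array median (y axis, a scale of its own in each panel), for each rat of litters L1 to L4 and of the adult and old groups. Points are rats, horizontal bars group means and vertical lines 1 SD. The 19 pups sit between 4.63 and 7.90 for Alox15, above all adult and old rats, and the 4 old rats stand alone above the others for Ltc4s.

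Alox15 showed the widest gap between ages of the 10 genes. Its probe was above background on every array, and the pups lay far above the adult and old rats. In L1 the log2 levels were 6.40, 5.52, 6.84 and 6.38, and in L2 they were 7.90, 7.16, 7.28, 7.47 and 6.80. In L3 they were 5.32, 5.75, 6.14, 6.66 and 5.55, and in L4 6.31, 4.63, 6.15, 5.67 and 5.77. The 4 highest pups were all of L2, and 1 pup of L1 (6.84) lay above the lowest of L2. The 4 adult rats gave 0.33, 0.02, -0.04 and 0.52, and the 4 old rats 1.19, 0.47, 0.53 and 0.05. The lowest pup was thus at 24.8 times the array median and the highest old rat at 2.28 times, while adult and old rats overlapped. The mean of the 4 litters was 6.09 ± 0.26 (standard error) above the adult mean on the log2 scale, which is 68.2-fold with a 95% interval of 47.0 to 99.0, and 5.74 ± 0.26 above the old mean, which is 53.5-fold (36.8 to 77.6). In the comparisons of ages, here and below, standard errors, intervals and p-values come from the spread of rats within each litter or age group. The spread between litters is not part of them. The difference of adult against old rats was -0.35 ± 0.33, or -0.17 relative to the median transcript. After normexp background correction and quantile normalization, which add an offset to dim probes, the differences of newborn against adult and old rats were 4.73 and 4.59.

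The pups differed among themselves too. Litter means of Alox15 ran from 5.71 ± 0.66 (SD, n = 5) in L4 to 7.32 ± 0.41 (n = 5) in L2, a 3.07-fold range, with L1 at 6.29 ± 0.55 (n = 4) and L3 at 5.89 ± 0.53 (n = 5). L1 and L3 overlapped with L4, and only the lowest L2 pup was matched by a pup of another litter. The pooled SD within litters was 0.54, against a median of 0.21 over the 23668 transcripts, and 94.7% of these varied no more within litters than Alox15.

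Across the 27 rats, with each rat's level taken as the deviation from the mean of its litter or age group, the genes whose levels ran most closely with Alox15 were Slc4a1, the anion exchanger of the red cell membrane (Pearson r = 0.85), Hbq1, a globin of the alpha cluster (r = 0.83), and Ncoa4, the receptor that sends ferritin to the lysosome (r = 0.82). The points share arrays and scaling, and r is a description. The red cell list fixed for this work moved with Alox15 as well: 4 of its 7 genes had a probe, all 4 were above background on every array, and their summed level was 323 to 1339 times the array median in pups, 57.6 to 114 in adult and 176 to 396 in old rats. Its log2 correlated with Alox15 within groups at r = 0.73.

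The members of that list did not differ by the same amount. Ahsp, the chaperone of alpha globin, was 5.09 higher in newborn than in adult rats on the log2 scale and 4.09 higher than in old rats, and Slc4a1 4.20 and 3.27 higher. Alas2, the first enzyme of haem synthesis in red cells, was 3.42 and 1.38 higher, and Hbb, beta globin, 1.66 and 0.32 higher. The difference of Alox15 between newborn and old rats, 5.74, was thus above that of each of these 4. Between old and adult rats the median summed level of the list differed 2.91-fold and Alox15 1.28-fold. The eosinophil list also stood higher in pups, with a summed level of 15.0 to 138 against 9.01 to 14.7 in adult and 3.02 to 4.37 in old rats, but only Prg2 was above background on all arrays, Ccr3 and Il5ra on none, and the list did not run with Alox15 within groups (r = -0.13). The list for fibroblasts and meninges came next to the red cells, with r = 0.54, and its median summed level in pups was 1.76 times that of adult and 9.53 times that of old rats. Collagen genes made up most of that sum. The macrophage list gave r = 0.07 and the ciliated respiratory cell list r = -0.05. The part of these cells in the level of Alox15 was not tested, and in tissue RNA fewer cells of a type and less RNA per cell cannot be told apart.

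**Figure D2:**
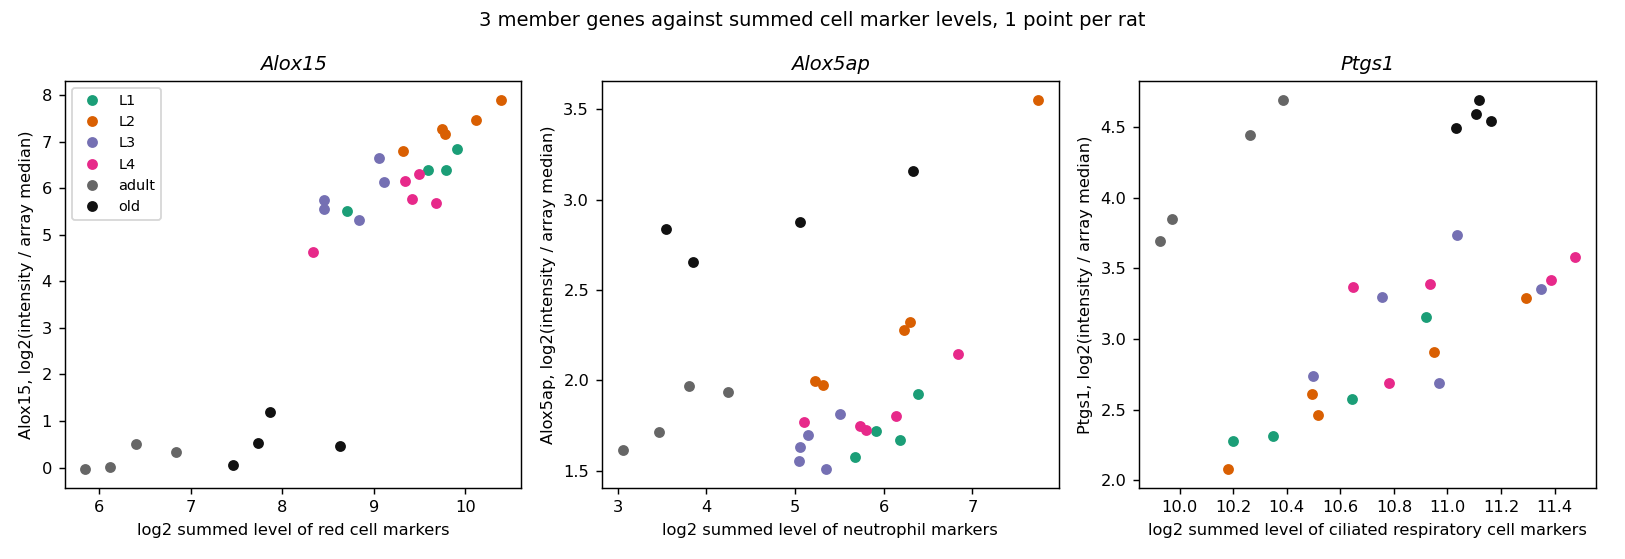
Level of Alox15, Alox5ap and Ptgs1 (y axes, log2 of intensity over the array median) against the log2 summed level of the red cell, neutrophil and ciliated respiratory cell marker lists (x axes), 1 point per rat, coloured by litter or age group. Pups with more red cell marker signal had more Alox15, and old rats lay at 0.05 to 1.19 for Alox15 at red cell sums that reach those of the lowest pups. In the second panel 1 pup of L2 stands at the top right for both measures.

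Alox5 ran the other way and varied within litters about as much as the median transcript (pooled SD 0.20 against 0.21). The pups lay between 0.32 and 1.13 with a median of 0.85. The adult rats gave 2.70, 2.74, 2.63 and 2.68 and the old rats 2.47, 2.46, 2.40 and 2.66. No pup reached an adult or old rat. The newborn mean was lower than the adult mean by 1.87 ± 0.10 on the log2 scale, a 3.65-fold difference (95% interval 3.18 to 4.19), and lower than the old mean by 1.68 ± 0.10, a 3.21-fold difference (2.79 to 3.68). Adult and old rats overlapped, at a difference of 0.19 ± 0.12, or 0.37 relative to the median transcript. Litter means lay between 0.64 and 0.94. With normexp correction both differences shrank, to -1.31 and -1.22.

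The mast cell list was lower in pups as well: its summed level was 20.4 to 169 in pups, 132 to 190 in adult and 128 to 206 in old rats, with all 8 markers matched. Among them Mcpt1, a mast cell protease, was 2.86 lower in newborn than in adult rats and Cpa3, the mast cell carboxypeptidase, 2.19 lower on the log2 scale. Cma1, a chymase, was 3.58 higher in newborn than in adult rats and not expressed in common. The list ran with Alox5 within groups at r = 0.35. The list of mature olfactory sensory neurons ran with it at r = 0.37 and was lower in pups too, its median summed level being 0.25 times that of adult and 0.17 times that of old rats. The genes closest to Alox5 there were Slc43a1, an amino acid transporter (r = 0.78), Fbn2, a fibrillin of developing tissue (r = 0.75), and Ankrd49 (r = 0.69). The part of mast cells and of neurons in the level of Alox5 was not tested.

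Alox12 was dim. It was above background on no array of L1 or L2, 4 of 5 arrays in L3 and in L4, all 8 adult arrays and 1 of 8 old arrays, and it was therefore not among the transcripts expressed in common. Its mean was -0.77 ± 0.41 (SD, n = 4) in adult, -2.46 ± 0.49 (n = 4) in old, -1.69 ± 0.51 (n = 5) in L3 and -1.70 ± 0.58 (n = 5) in L4 rats. Against the lowest signal well above background, adult rats were at least 2.88-fold higher than L1 (measured means -0.77 and -2.40) and at least 2.43-fold higher than L2 (-0.77 and -2.77), a bound set by the detection limit of each array. All 4 adult rats lay above all 4 old rats, and 1 pup of L4 (-0.95) and 1 of L3 (-1.14) reached the adult range.

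Of the leukotriene genes, Alox5ap and Ltc4s were highest in old rats. Alox5ap gave 3.16, 2.65, 2.87 and 2.84 in the old rats and 1.61, 1.72, 1.94 and 1.97 in the adult rats, without overlap. The difference of adult against old was -1.07 ± 0.22 on the log2 scale, 2.10-fold. The pups lay at 1.51 to 2.32 with the exception of rat 24 of L2, at 3.55, so that newborn and old rats overlapped through that 1 pup. The newborn mean differed from the adult mean by 0.10 ± 0.17, relative to the median transcript by -0.06, and was 0.98 ± 0.17 below the old mean, 1.97-fold.

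Ltc4s gave 1.86, 2.08, 1.85 and 1.82 in the old rats, 0.69, 0.40, 0.63 and 0.57 in the adult rats and -0.44 to 0.70 in the pups, with a median of 0.28. The old rats stood apart from all 23 younger rats. Old rats exceeded adult rats by 2.51-fold (95% interval 2.02 to 3.13) and pups by 3.13-fold (2.64 to 3.71), while pups and adults overlapped, at -0.32 ± 0.12 on the log2 scale, or -0.47 relative to the median transcript. With normexp correction the differences of adult against old and of newborn against old rats shrank to -0.95 and -1.04, outside these intervals, and that of newborn against adult rats to -0.09. The summed level of the macrophage list was also highest in old rats, at 315 to 487 against 161 to 238 in adults and 165 to 318 in pups, with 7 of its 8 genes above background on all arrays of each group. That list ran with Alox5ap within groups at r = 0.44 and with Ltc4s at r = -0.05. The part of macrophages in the levels of both genes was not tested. The lists closest to Ltc4s within groups were platelets and megakaryocytes (r = 0.45) and eosinophils (r = 0.44). Unlike Ltc4s, both had lower sums in old rats than in pups, at 52.7 to 77.3 against 88.2 to 155 and at 3.02 to 4.37 against 15.0 to 138. Their part was not tested either.

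Alox5ap and Ltc4s also differed in the genes that ran with them. For Alox5ap these were the receptor genes Fcgr2a (r = 0.93) and Fcgr3 (r = 0.92), which bind antibody on myeloid cells, and Il1r2, a decoy receptor for interleukin 1 (r = 0.92). For Ltc4s the closest were Hspa12a (r = 0.70), Adgrl1, a latrophilin (r = 0.69), and Ppp2r2c, a phosphatase subunit (r = 0.67). The neutrophil list, of which 7 of 8 genes had a probe, correlated with Alox5ap within groups at r = 0.79 and with Ltc4s at r = -0.13. Its summed level was 33.1 to 213 in pups, 8.30 to 18.9 in adult and 11.6 to 80.6 in old rats, and its part in the level of Alox5ap was not tested. The r values of Alox5ap include rat 24 of L2, at 3.55 against a litter mean of 2.42. That pup was the highest of the 19 for Alox5ap and for the neutrophil and macrophage lists, so r may rest largely on it.

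Lta4h varied least within litters of the members expressed in common (pooled SD 0.15). It gave 5.06, 5.04, 5.15 and 5.12 in the adult rats, 5.68, 5.62, 5.57 and 5.78 in the old rats and 5.09 to 5.81 in the pups. The adult rats were the low group: they lay 0.57 ± 0.10 below the old and 0.41 ± 0.08 below the newborn mean on the log2 scale. Both differences shrank with the shift of all transcripts, to -0.39 and 0.26 relative to the median, and with quantile normalization to -0.25 and 0.08. The litter L2 (mean 5.23) lay below L1, L3 and L4 (5.54 to 5.64), overlapping L3 by 1 pup. The genes that ran most closely with Lta4h within groups were Slc4a2, an anion exchanger (r = 0.92), Suclg2, a subunit of a citric acid cycle enzyme (r = 0.92), and Chd1l (r = 0.91, and 0.79 with quantile normalization).

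**Figure D3:**
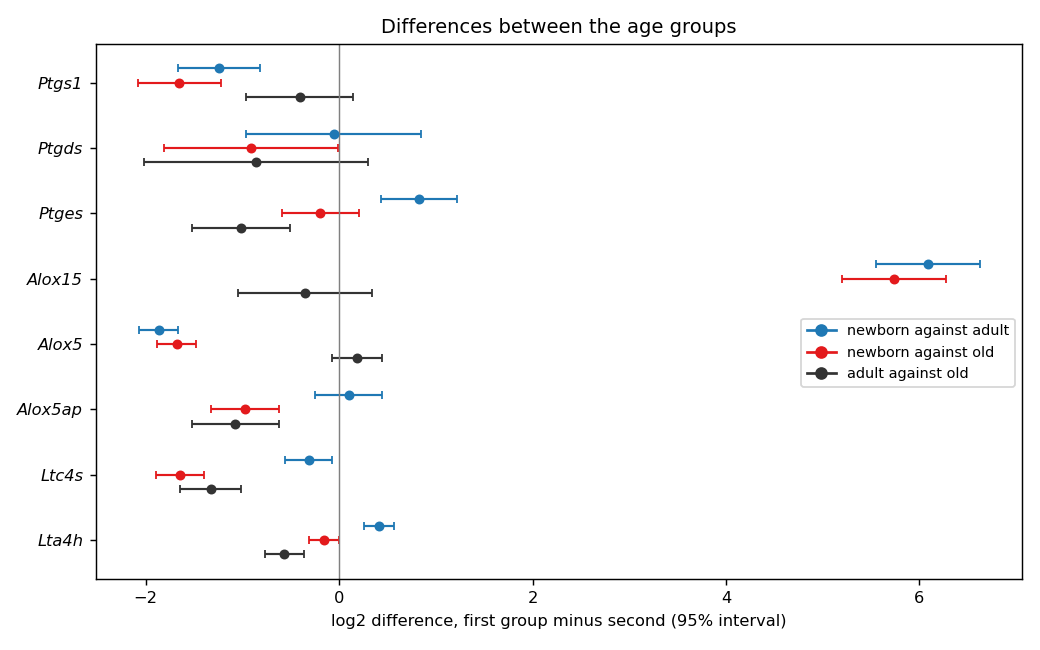
Log2 difference of group means for the 8 members expressed in common (x axis, first group minus second, points with 95% intervals of the limma fit), in each of the 3 comparisons of ages. Alox15 lies at 6.09 and 5.74 for the newborn comparisons and the other 7 genes between -1.87 and 0.83 in all 3.

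Among the cyclooxygenases, Ptgs1 was lowest in the pups. It gave 3.69, 3.85, 4.44 and 4.70 in the adult rats, 4.69, 4.59, 4.49 and 4.54 in the old rats and 2.08 to 3.74 in the pups, with a median of 2.91. No pup reached an old rat and the highest pup only just passed the lowest adult. The newborn mean was lower by 1.24 ± 0.21 than the adult mean, 2.37-fold, and lower by 1.65 ± 0.21 than the old mean, 3.15-fold. Litter means ran from 2.58 ± 0.41 (SD, n = 4) in L1 to 3.29 ± 0.34 (n = 5) in L4.

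Ptgs2, the inducible cyclooxygenase, was near the limit of detection. Its probe spotted once was above background on none of the 35 arrays. Its probe spotted 10 times was above background on 6 arrays: rat 24 of L2 at 1.12, old rat 17 on side B at 0.23, old rat 19 on side A at 0.21, and adult rats 15 on both sides and 16 on side A at -1.59, -1.91 and -1.71. The other side of the same old rats gave -3.75 and -2.88, and the other 18 pups -2.29 or less, with values at the floor of the scale in the dimmest. The signal thus stood out in 1 pup and in 1 side each of 2 old rats, and only on 1 of the 2 probes, which lie at different sites of the gene.

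Ptges, which makes prostaglandin E, gave 2.09, 2.05, 2.23 and 2.45 in the adult rats, 3.42, 3.25, 3.12 and 3.12 in the old rats and 2.38 to 3.91 in the pups, with a median of 3.09. The adult rats were again the low group, all below the old rats, at a difference of -1.02 ± 0.25 on the log2 scale, or 2.03-fold, and the newborn mean was above the adult mean by 0.83 ± 0.19, or 1.77-fold. Newborn and old rats overlapped (-0.19 ± 0.19, relative -0.16). Ptgs1 and Ptges ran together within groups (r = 0.70), and both ran with the ciliated respiratory cell list, at r = 0.77 and r = 0.70. Rat 24 was the highest pup of L2 for both genes and for the list, so these r values may rest partly on it. All 6 markers of that list were above background on all arrays, and its summed level was 1159 to 2848 in pups, 972 to 1337 in adult and 2093 to 2294 in old rats. The adult rats were therefore low for the list and for Ptges and not for Ptgs1. The genes closest to Ptgs1 were Aldh1a1, a retinal dehydrogenase (r = 0.93), Acsm5 (r = 0.90) and Lrrc26 (r = 0.89), and those closest to Ptges were Krt19, an epithelial keratin (r = 0.90), Muc20, a mucin (r = 0.90), and Abo, a glycosyltransferase (r = 0.90). The part of respiratory epithelium in these levels was not tested.

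Ptgds, the lipocalin-type prostaglandin D synthase, was the member that varied most within litters among those expressed in common. In L1 it gave 8.41, 6.59, 6.23 and 6.78, in L2 7.60, 7.13, 6.45, 8.63 and 6.60. In L3 it gave 5.75, 7.73, 6.70, 7.81 and 7.65, and in L4 7.46, 8.20, 5.07, 7.06 and 6.60. Pups of the same litter thus differed by up to 8.74-fold, while the 4 litter means lay between 6.88 and 7.28. The adult rats gave 7.20, 7.37, 6.74 and 7.22 and the old rats 8.02, 7.62, 8.04 and 8.27, without overlap between the 2 ages. The pooled SD within litters was 0.99, and 98.9% of the transcripts varied no more. Against the old rats the newborn mean was lower by 0.92 ± 0.44, and adult rats differed from old rats by -0.86 ± 0.56 with an interval that includes 0, in a fit where all 6 groups share 1 estimate of the spread. The genes that ran with Ptgds were Slc6a13, a transporter of GABA (r = 0.89), Slc13a3, a dicarboxylate transporter (r = 0.88), and Tnnt2, a troponin (r = 0.81). The list that ran most closely with it was endothelium (r = 0.61), followed by ensheathing and Schwann glia (r = 0.48). The endothelium list was at 74.4 to 184 in pups, 47.9 to 54.0 in adult and 87.9 to 110 in old rats, and its part in the level of Ptgds was not tested. The mast cell list ran against it (r = -0.73), and the list for fibroblasts and meninges, of which 7 of 7 genes had a probe, gave r = -0.11. The summed level of that list was 3061 to 7490 in pups, 2157 to 3492 in adult and 391 to 742 in old rats. Most of this sum came from Col1a1, Col1a2 and Col3a1, at 10.98, 10.73 and 9.65 in newborn rats on the log2 scale. Slc22a6 (-0.07) and Aldh1a2 (-6.56) added almost nothing, so the r of the list does not describe them.

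In the fit over all transcripts, with limma and Benjamini-Hochberg adjustment, 3 of the 8 members expressed in common were higher and 2 lower in newborn than in adult rats at an adjusted p under 0.01, beside 39.7% and 26.7% of all 23668. For newborn against old rats the counts were 1 and 4, beside 28.4% and 31.5%, and for adult against old rats 0 and 4, beside 15.9% and 31.4%. These contrasts chose the members, and nothing is read from the counts. The split of all calls depended on the scaling: 59.8% of those of newborn against adult rats were higher in newborn rats, and 47.3% with quantile normalization. For adult against old rats 33.6% were higher in adult rats, and 50.3% with quantile normalization.

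The side of the nose was not used to choose the members. Between sides A and B of the 8 adult and old rats, tested by limma with the rat as a block, none of the 8 members passed an adjusted p of 0.01. Nor did any of the 23668 transcripts (0%), of which 1536 (6.49%) had an unadjusted p under 0.05. Ltc4s was the only member below that level (adjusted p = 0.638 by limma). Its estimate was 0.17 ± 0.06 lower on side A, with 2 of 8 rats higher there. For Alox15 the difference of A against B was -0.04 ± 0.23, and the 2 sides of 1 rat differed by up to 1.58. For Alox5 and Lta4h no rat differed by more than 0.25 and 0.14 between its sides. Ptgds differed by up to 1.35, with a median of 0.72.

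Rat 24 of L2 stood apart from the other 18 pups for several members, and was singled out after its values were seen. Its array was on slide 10 and scan day 5, and those of its 4 littermates on slide 6 and scan day 4. The 3 other pups scanned on day 5, rats 26 and 28 of L3 and 34 of L4, gave 1.81, 1.63 and 1.80 for Alox5ap and -3.21, -6.64 (the floor) and -3.13 for Ptgs2, and rat 28 shared its slide. Within L2 the slide and the pup cannot be told apart. It held the highest level of Ptgs2 (1.12 against at most -2.29), Alox5ap (3.55 against at most 2.32), Ptges (3.91 against at most 3.64) and Ptgds (8.63 against at most 8.41) and the second highest of Alox15 (7.47). Its Ltc4s (-0.44) was the lowest of the 19. It was also the highest pup for 14 of the 40 further pathway genes tested, as for 12.4% of all transcripts. These included Ggt1, an enzyme that trims leukotriene C4 (6.98-fold over the median of the other pups), Alox12e (4.60-fold), Pla2g10, a secreted phospholipase A2 (4.57-fold), Hpgds, the haematopoietic prostaglandin D synthase (2.73-fold), and Tbxas1, which makes thromboxane (2.71-fold).

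In that pup the neutrophil list was at 4.10 times the median of the other pups, with S100a8 at 5.35-fold and S100a9 at 6.15-fold, both calcium-binding proteins of neutrophils, and Mmp8, a collagenase, at 4.79-fold. These were the highest of the 19 pups, as was the macrophage list at 1.43 times. The other neutrophil markers were not: Camp was at 1.66-fold and Fcnb at 1.32-fold, both ranked 5 of 19, and the granule proteases Prtn3 at 0.80-fold and Elane at 0.50-fold, both ranked 15. Of the macrophage markers, Csf1r was at 1.31-fold (ranked 4), Cd68 at 1.24-fold (ranked 7) and Adgre1 at 0.93-fold (ranked 14). The remaining macrophage markers ranked highest. The part of these cells in the levels of this pup was not tested. Without rat 24, the difference of newborn against old rats for Alox5ap was -1.05 and none of the 44 calls on the 20 pathway genes named by rule was lost. The counts of pathway genes higher and lower in newborn than in adult rats, given below, were then 20 and 8.

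**Figure D4:**
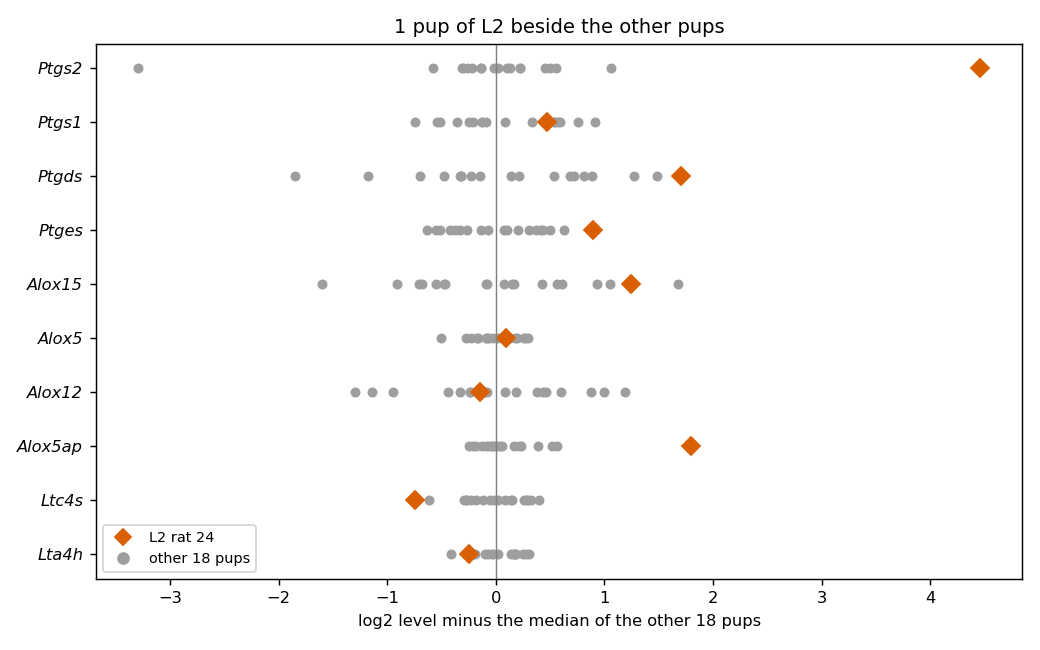
Log2 level of each member minus the median of 18 pups (x axis), with rat 24 of L2 as orange diamonds and the other 18 pups as grey points. For Ptgs2 the probe spotted 10 times is shown, which was above background in no pup but rat 24. The diamonds lie beyond all grey points for Ptgs2, Alox5ap, Ptges and Ptgds on the right and for Ltc4s on the left.

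The remaining genes of the pathway were taken from 6 lists of 63 genes that held none of the members, of which 56 had a probe and 40 were expressed in common and tested. Of the 40, 18 were higher and 9 lower in newborn than in adult rats at an adjusted p under 0.01 (limma), which is 45% and 22.5% beside 39.7% and 26.7% of all transcripts, with a median log2 difference of 0.39 against 0.15. With quantile normalization the counts were 13 and 14. Against old rats, 8 were higher and 17 lower in newborn rats, 20% and 42.5% beside 28.4% and 31.5%, with a median of -0.25 against -0.03. In adult against old rats, 2 were higher (Pla2g16 and Pla2g7) and 18 lower, 5% and 45% beside 15.9% and 31.4%, with a median of -0.51 against -0.18. With scan day as a random block these last counts were 0 and 10, and with L1 alone against old rats, the comparison within 1 scan day, 3 were higher and 17 lower in pups.

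All 5 of the other prostanoid synthases tested were called higher in pups than in adult rats, beside 39.7% of all transcripts. Hpgds, listed on the array as Ptgds2, was 3.91-fold higher (limma, adjusted p = 1.3e-06), and all pups lay above all adult rats. Tbxas1 was 2.06-fold higher (adjusted p = 2.8e-04), and Ptgis, which makes prostacyclin, Cbr1 and Ptges2 differed less, at 0.86, 0.75 and 0.29 on the log2 scale, the last being 0.14 relative to the median transcript. Against old rats 2 of the 5 were higher in pups, Hpgds and Ptgis, and 1 lower, Ptges2, beside 28.4% and 31.5% of all transcripts. In adult against old rats 3 of the 5 were lower, Ptges2, Tbxas1 and Cbr1, beside 31.4% of all transcripts. The call of Hpgds in the second comparison was lost under 9 alternatives (adjusted p of 0.0110 to 0.0347), among them quantile normalization, slide or scan day as a random block and L1 alone. That of Tbxas1 in the third was lost under 5 (0.0106 to 0.0402), among them scaling to the 75th percentile and both blocks.

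Of the 14 phospholipases A2 tested, 5 were higher and 2 lower in newborn than in adult rats, and 3 higher and 6 lower than in old rats. These are 35.7% and 14.3%, and 21.4% and 42.9%, beside the shares of all transcripts given above. Between adult and old rats, 2 were higher and 7 lower in adult rats, 14.3% and 50% beside 15.9% and 31.4% of all transcripts. Pla2g10 was 3.86-fold higher in newborn than in adult rats (adjusted p = 1.4e-04) and 3.32-fold above old rats (adjusted p = 5.8e-04), and Pla2g2c lay 2.81-fold above adult rats (adjusted p = 8.6e-08). Pla2g5 was lower in pups, 2.48-fold against adult (adjusted p = 2.2e-04) and 3.39-fold against old rats (adjusted p = 7.2e-06). The secreted enzymes Pla2g2a, Pla2g2e, Pla2g3 and Pla2g1b were lower in adult than in old rats, by 4.69-fold, 2.76-fold, 2.21-fold and 2.76-fold (limma, adjusted p of 5.4e-05, 5.9e-06, 0.0026 and 1.7e-05). The call of Pla2g3 was lost with slide (adjusted p = 0.0131) and scan day (adjusted p = 0.0323) as a random block in limma, and that of Pla2g2a by the methods' test (adjusted p = 0.0204). Pla2g7, the platelet-activating factor acetylhydrolase, was 2.54-fold higher in newborn than in old rats (adjusted p = 9.2e-07). With L1 alone against old rats, within 1 scan day, the calls of Pla2g7 and Pla2g5 were lost (adjusted p of 0.0120 and 0.0503). Pla2g4a, the cytosolic enzyme that starts the pathway in most cells, passed the test in none of the 3 comparisons.

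**Figure D5:**
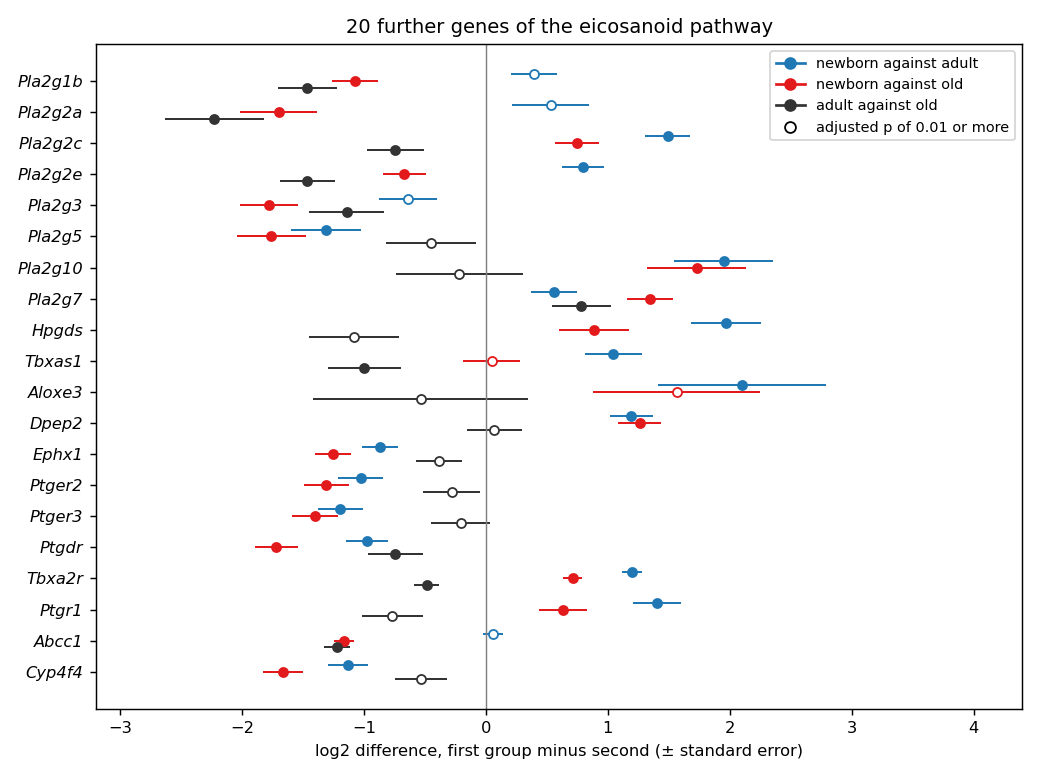
Log2 difference (x axis, first group minus second, with the standard error) for the 20 genes of the pathway lists with the largest called changes, in each of the 3 comparisons of ages. Filled points passed an adjusted p of 0.01 and open points did not. Tbxa2r, Hpgds, Pla2g10 and Dpep2 lie to the right in both newborn comparisons, and Ptger2, Ptger3, Ptgdr, Ephx1 and Cyp4f4 to the left.

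Of the 5 prostanoid receptors tested, 3 were lower and 1 higher in newborn than in adult rats, and likewise against old rats. Among all transcripts 26.7% were lower and 39.7% higher than in adult rats, and 31.5% and 28.4% than in old rats. Ptger2, a prostaglandin E receptor, was lower by 2.04-fold and 2.48-fold (limma, adjusted p of 2.4e-05 and 1.0e-06). Ptger3, also a prostaglandin E receptor, was lower by 2.29-fold and 2.64-fold (3.5e-06 and 4.3e-07). The prostaglandin D receptor Ptgdr was lower by 1.97-fold and 3.30-fold (2.4e-05 and 5.9e-09). The thromboxane receptor Tbxa2r was higher, 2.29-fold and 1.64-fold (adjusted p of 1.8e-12 and 2.9e-08), with every pup above every adult and old rat. Ptger1 did not pass. Of those not tested, Ptgir, the prostacyclin receptor, was above background on 8 of 8 old arrays and 0 of 8 adult arrays, at least 3.65-fold higher in old rats (measured means -0.50 and -2.93). Ptgfr was above background on 18 of 19 newborn and 7 of 8 adult arrays and on 0 of 8 old arrays. None of the 5 leukotriene and lipoxin receptors with a probe was expressed in common, and Cysltr1 and Cysltr2, the receptors of the Ltc4s product and its derivatives, were above background on no array.

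Among the other lipoxygenases and leukotriene or epoxide enzymes, 4 of 8 were higher and 1 lower in newborn than in adult rats, beside the shares of all transcripts given above. Dpep2, a dipeptidase that acts on leukotriene D4, was higher in pups by 2.29-fold against adult (adjusted p = 1.4e-06) and 2.40-fold against old rats (adjusted p = 8.1e-07), and the epoxide hydrolase gene Ephx1 was lower, by 1.82-fold and 2.38-fold (adjusted p of 1.3e-05 and 7.8e-08). Alox12e, the lipoxygenase whose probe lies nearest to that of Alox15, passed in none of the 3 comparisons, with pups at 2.15 to 5.24, adult rats at 2.15 to 3.89 and old rats at 2.13 to 2.63. Alox15b was above background on no array.

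Of the 8 genes for inactivation and transport, 3 were higher and 3 lower in newborn than in adult rats. Of all transcripts, 39.7% were higher and 26.7% lower in that comparison. Against old rats 1 of the 8 was higher and 5 lower in pups, beside 28.4% and 31.5% of all transcripts. Ptgr1, listed as Ltb4dh, which inactivates prostaglandins and leukotriene B4, was 2.64-fold higher in newborn than in adult rats (adjusted p = 6.5e-07). Cyp4f4, of a family that hydroxylates leukotriene B4, was 2.19-fold lower in newborn than in adult (adjusted p = 1.3e-06) and 3.17-fold lower than in old rats (adjusted p = 3.6e-09), without overlap. Abcc1, an exporter of leukotriene C4, was highest in old rats, 2.24-fold over pups and 2.33-fold over adult rats (adjusted p of 1.1e-11 and 1.4e-09), again without overlap.

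Of the 44 calls on the 20 genes named by rule, 35 held when each of the 27 rats was left out in turn. For newborn against old rats, Pla2g2e lost its call without rat 17 or 18 of the old group (adjusted p of 0.0121 to 0.0137), Ptgr1 without any of the 4 old rats (up to 0.0391), Pla2g7 in adult against old rats without adult rats 14, 15 or 16 or old rats 18 or 20 (up to 0.0403), Ptgdr without adult rats 13, 14 or 16 or old rats 17, 18 or 20 (up to 0.0242), and Tbxas1 without adult rats 13, 14 or 16 or old rats 17, 19 or 20 (up to 0.0229), the last 2 in adult against old rats. The calls of Aloxe3 and Pla2g7 in newborn against adult rats, of Hpgds in newborn against old rats and of Pla2g2c in adult against old rats were each lost without any of 9 to 16 rats, with adjusted p of up to 0.0771.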

How the data were processed

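RNA of olfactory epithelium was labelled with Cy3 and hybridised to 35 one-colour Agilent whole rat genome arrays. The intensity values were deposited as scanner output of Agilent Feature Extraction (releases 9.5.1.1 and 9.5.3.1, per the file headers), in which the authors' software had subtracted a fitted background and removed a spatial trend. The series table deposited by the authors holds ratio values, scaled to the array median and then to a constant per probe, and served as an alternative.

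From the processed intensity, outlier spots were left out (4189 values), spots of a probe were averaged over 41012 probes, each array was divided by its median, a floor of 0.01 was set and log2 taken. Both sides of a rat were averaged, which gave 27 rats in 6 groups. Groups were compared with limma 3.58.1 in R 4.3.3 (21 residual degrees of freedom), newborn being the mean of the 4 litters, with Benjamini-Hochberg adjustment over 23668 transcripts and a threshold of 0.01. Probe names came from the files, with 10735 of 24824 accessions also matched to the RefSeq gene table, and the brightest probe stood for each pathway or marker gene. Depth has no counterpart on arrays, and the number of rats limits the precision.

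The members, pathway lists and marker lists were chosen with earlier results of these data known. The pathway genes named were those past the threshold with a fold of at least 2, up to 20 by size of change, and for each member expressed in common the 3 named genes with the highest r are given. Genes outside this rule were named after their values were seen. Alternatives covered scaling, background, floor, filter, blocks, test, probe choice and leaving out each rat. Leaving out litter L2 was added after seeing the data. Tested on simulated data for newborn against adult rats (23629 transcripts, 200 changed), the fit recovered 86% of changes of 1 and 99% of changes of 2 on the log2 scale, with 0 false calls. The simulated rats had independent noise, with no effect of litter, slide or scan day. In the measured data the correlation within a slide was 0.23 and within a scan day 0.25. The count of false calls therefore does not carry over to them.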

Additional observations from a re-analysis of the deposited data

Results flagged for a closer look

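In groups of 4 or 5 rats, 18 of the 175 combinations of gene and group checked held 1 rat far from the others by Dixon's criterion, where chance gives about 1 in 20. Of these, 8 were rat 24 of L2, whose array was on another slide and scan day than those of its littermates. Its Alox5ap was 3.55 (the other L2 pups 1.97 to 2.32), its Ptgs2 1.12 on the probe spotted 10 times (-3.24 to -2.29), its Ptges 3.91 (2.46 to 2.88), its Hpgds 2.76 (0.58 to 1.17), its Tbxas1 4.16 (2.09 to 2.62), its Pla2g7 4.05 (2.91 to 3.22), its Pla2g1b 0.78 (-0.50 to -0.16) and its Pla2g2e -0.14 (-0.98 to -0.87), all on the log2 scale. In L4, rat 35 was high for Alox5ap at 2.15 (1.73 to 1.80) and low for Ptgs1 at 2.69 (3.37 to 3.58). Rat 31 of L4 was low for Ltc4s at 0.073 (0.56 to 0.70). Rat 32 of L4 was high for Pla2g3 at -0.11 (-1.06 to -0.84) and low for Ptger3 at -0.86 (-0.20 to -0.07), and rat 10 of L1 was high for Ptger3 at 0.39 (-0.55 to -0.46). Among the old rats, rat 18 was high for Ltc4s at 2.08 (1.82 to 1.86) and for Abcc1 at 7.65 (7.44 to 7.47), and rat 17 was low for Cyp4f4 at 7.83 (8.19 to 8.25). Adult rat 15 was high for Ptgdr at 0.31 (0.09 to 0.12).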

How the results depend on the processing

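The number of pathway genes lower in newborn than in adult rats was 9, and 14 with quantile normalization, with or without normexp. The number higher in adult than in old rats was 2, and 1 with every array and the rat as a random block, with the slide as a random block and by the methods' t-test, and 0 with scan day as such a block or when the litter means were the newborn replicates. The number lower in adult than in old rats was 18, and 10 with scan day as a random block. The number higher in newborn than in old rats was 8, and 3 with L1 alone. The cause of these shifts was not tested. Leaving out 1 rat at a time gave 13 to 20 higher and 8 to 9 lower for newborn against adult, 6 to 8 and 15 to 18 for newborn against old, and 1 to 2 and 14 to 20 for adult against old rats. By the methods' t-test, run here with equal variances, the counts after Benjamini-Hochberg were 12 and 6, 6 and 15, and 1 and 16. Of the 44 calls on named pathway genes, 10 were lost with scan day and 9 with slide as a random block, 8 without a filter, 8 by the t-test and 7 of 18 with L1 alone, and none was reversed under any setting. With litter means as the newborn replicates 4 were lost. These were Pla2g7 in newborn against adult (limma, adjusted p = 0.0852) and in adult against old rats (0.0253). The others were Pla2g2e and Ptgr1 in newborn against old rats (0.0142 and 0.0149). Of the member differences, 14 values under the other alternatives moved by more than 1 SD and 354 by less. No paired analysis was possible because the groups compared share no replicate numbers. Dim probes such as those of Alox12 and Ptgs2 are limited by signal over background.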
